A study of Homo sapiens with 27 samples.

Results

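A group of 10 genes of goblet cells, mucus and mucosal secretion was followed in 3 human colorectal cancer lines through resistance to an antibody and natural killer (NK) cell challenge and its withdrawal. They are SPDEF, MUC2, MUC13, FCGBP, TFF1, TFF3, AGR2, SPINK4, REG4 and PIGR. They were chosen by name as genes of goblet cells, mucus and mucosal secretion, with earlier results of these data known. All 10 had a row among the 17687 genes of the array table. The largest change belonged to PIGR, the receptor that carries dimeric IgA across mucosal epithelium. It rose from near background to a log2 level of 13.05 in resistant LIM1215 cells and was near background again after withdrawal. In Caco2, AGR2, MUC13 and TFF3 rose in resistant cells, and after withdrawal AGR2 lay below its parental level. MUC13 was also lower than parental after withdrawal, but its parental mean was only 0.19 above background and its withdrawal mean was near background. In SW48, none of the 10 genes exceeded background on any of 9 arrays.

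Goblet cells arise from the secretory lineage of the intestinal epithelium, which requires the transcription factor ATOH1, and SPDEF acts after it to drive goblet cell maturation. Their granules release the gel-forming mucin MUC2 with FCGBP, which is bound into the gel, and trefoil peptides, which protect and help to repair the surface. AGR2 is a disulfide isomerase of the endoplasmic reticulum that mucin production requires. MUC13 is a mucin anchored in the cell membrane. SPINK4 and REG4 are small secreted proteins of goblet and deep crypt secretory cells, and colorectal tumours with mucinous or signet ring features often carry REG4. PIGR is made by crypt epithelium in general, and interferon gamma, tumour necrosis factor, interleukin 4 and interleukin 17 are known to induce it.

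The 27 Affymetrix arrays, each with total RNA of 1 sample, cover 3 states of LIM1215, SW48 and Caco2 with 3 arrays apiece. Parental cells were the untreated lines, each grown from 1 clone. Resistant cells were what survived 20 cycles with cetuximab, an antibody against the growth factor receptor EGFR, at 1 ug per ml together with NK-CD16 cells, which are NK cells carrying the Fc receptor that binds antibody. Withdrawal cells were resistant cells kept for 20 more cycles with neither agent. Each line had its own culture medium, and only the LIM1215 medium contained hydrocortisone and insulin. The labels do not say whether replicates came from separate cultures, so p-values measure only the spread between these samples, which may be technical.

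The stretches upstream of 5 genes that changed in LIM1215 or Caco2 are shown so that the genes can be compared at their starts. They are the 250 bases before the annotated start on the gene's own strand, from RefSeq on GRCh38.p14, which held 8 of the 10 genes and no entry for TFF1 and TFF3. Capitals mark matches to one of 6 short motifs searched on both strands. PIGR lies at chr1:206946467-206946716 (minus strand), AGR2 at chr7:16805000-16805249 (minus), MUC13 at chr3:124934752-124935001 (minus), REG4 at chr1:119811461-119811710 (minus) and SPINK4 at chr9:33239917-33240166 (plus).
PIGR: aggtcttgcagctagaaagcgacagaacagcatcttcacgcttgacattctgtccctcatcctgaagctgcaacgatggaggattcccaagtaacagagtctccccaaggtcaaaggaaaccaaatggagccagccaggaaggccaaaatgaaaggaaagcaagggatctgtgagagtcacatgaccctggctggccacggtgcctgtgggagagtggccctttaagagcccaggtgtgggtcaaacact
AGR2: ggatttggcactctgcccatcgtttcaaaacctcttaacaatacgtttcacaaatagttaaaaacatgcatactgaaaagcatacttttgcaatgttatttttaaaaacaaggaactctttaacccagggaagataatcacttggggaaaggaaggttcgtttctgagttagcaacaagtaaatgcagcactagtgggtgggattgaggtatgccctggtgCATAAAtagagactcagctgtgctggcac
MUC13: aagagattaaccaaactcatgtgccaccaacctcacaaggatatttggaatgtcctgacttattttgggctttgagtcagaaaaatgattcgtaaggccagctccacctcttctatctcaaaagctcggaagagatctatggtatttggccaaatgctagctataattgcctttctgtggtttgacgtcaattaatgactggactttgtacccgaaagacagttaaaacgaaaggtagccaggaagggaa
REG4: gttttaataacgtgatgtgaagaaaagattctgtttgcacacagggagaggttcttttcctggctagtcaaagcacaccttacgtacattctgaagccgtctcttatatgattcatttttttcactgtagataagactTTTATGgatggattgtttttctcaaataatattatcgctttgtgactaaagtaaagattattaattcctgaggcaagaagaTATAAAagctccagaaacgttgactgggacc
SPINK4: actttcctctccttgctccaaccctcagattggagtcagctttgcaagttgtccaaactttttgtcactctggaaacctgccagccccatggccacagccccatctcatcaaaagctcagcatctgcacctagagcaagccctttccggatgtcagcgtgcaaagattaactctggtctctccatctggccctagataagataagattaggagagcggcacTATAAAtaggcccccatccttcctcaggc

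The motif bound by STAT factors, TTCNNNGAA, occurs in 6.57% of the 35116 windows of this length in the table. The core of the interferon-stimulated response element, searched as GAAANNGAA, occurs in 6.88% of them. The E-box was searched as CACGTG and occurs in 6.34%. For FOXA factors the letters were TGTTTAC, which 2.98% of windows hold. For the intestinal CDX factors they were TTTATG, which 9.64% hold, and for the basal promoter element of that name TATAAA, which 10.7% hold. No 2 matches in the windows shown overlapped. The SPINK4 window held a TATA box from -29 to -24, counted from the start. The REG4 window held a TATA box from -31 to -26 and a CDX match from -112 to -107. In AGR2 a CDX match lay on the opposite strand from -29 to -24. None of the 6 motifs was found in the windows of PIGR and MUC13, which says only that these letters are absent from these windows. GC content was 52.8% in PIGR, 50.8% in SPINK4, 41.6% in MUC13, 40.4% in AGR2 and 35.6% in REG4.

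Values are given as deposited, read as log2 intensities, and levels were compared only within a line. A group was called near background when its mean lay below the mean, over its arrays, of the 95th percentile of 612 negative control probe sets. That percentile was 7.14 to 8.05 in LIM1215, 6.57 to 7.24 in SW48 and 7.5 to 8.19 in Caco2, and 43.44% to 53.5% of genes exceeded it on an array. A fold against a group near background is a lower bound, given as "at least", and no fold is given where both groups were near background. Replicates correlated at 0.9946 or more across genes in 8 groups, and at 0.9871 to 0.9968 in parental LIM1215, where replicate 3 stood apart. In that group the interferon-induced IFIT1 ranged from 6.17 to 13.16. For the comparisons within LIM1215 that are reported below, calls and gene counts that change without this array are given with and without it. Comparisons not reported below are not covered. Shares of all genes are always those of the fit with it. Without it more genes were called, 2603 in place of 1913 in resistant and 5019 in place of 3724 in withdrawal against parental LIM1215. List counts without this array stand against these larger numbers.

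NK cell transcripts were present on the arrays of resistant cells. Of 32 measured NK and leukocyte markers, 17 were above background in resistant LIM1215, 6 in resistant SW48 and 12 in resistant Caco2, against 1 or 2 in every parental and withdrawal group. Their summed intensity (log2) was 10.13 to 11.11 in parental, 14.16 to 14.52 in resistant and 11.03 to 11.1 in withdrawal LIM1215. It was 8.86 to 9.06, 11.02 to 11.56 and 9.85 to 9.99 in SW48, and 10.5 to 10.74, 13.82 to 14.12 and 11.17 to 11.21 in Caco2. PTPRC, the general leukocyte marker CD45, was 8.45 in resistant LIM1215 and 9.25 in resistant Caco2 and near background in the other states of both lines, but in SW48 it was above background in the parental and withdrawal groups. No array of NK-CD16 cells alone was analysed here, and the part of these transcripts in the changes below was not tested unless a value is given. Of 11 measured markers of colorectal epithelium, all were above background in LIM1215 in every state, 6 or 7 in SW48 and 8 in Caco2. In bulk samples, fewer cells of a type and less RNA per cell cannot be told apart.

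**Figure D1:**
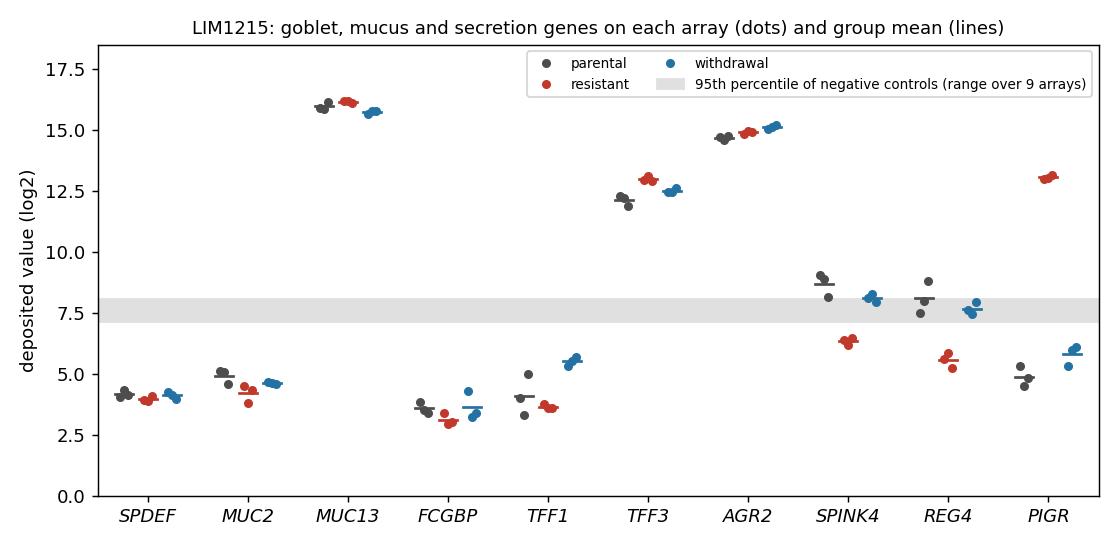
Deposited log2 value of the 10 genes (x axis) on each LIM1215 array, coloured by state, with group means as short lines and the range of the background level over 9 arrays as a grey band. PIGR stands near 13 on the 3 resistant arrays and below the band on the other 6, SPINK4 and REG4 dip below the band in resistant cells, and heights of different genes are not comparable.

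In LIM1215, MUC13, AGR2 and TFF3 exceeded background on all 9 arrays, and SPINK4, REG4 and PIGR did so in some states. In Caco2, TFF3 did so on all 9 arrays and AGR2, MUC13 and TFF1 on some. SPDEF, MUC2 and FCGBP were below background on all 27 arrays. Differences for genes near background in both groups are therefore differences of deposited values only.

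In resistant against parental LIM1215, 2 of 10 genes rose and 3 fell (limma, Benjamini-Hochberg adjusted p under 0.05), where 10.8% of all genes passed, 5.42% higher and 5.39% lower (1913 genes, or 2603 without parental replicate 3). After withdrawal, 2 were higher than parental and 0 lower, both near background in either state, where 21.1% of all genes passed (9.89% higher, 11.2% lower). Without parental replicate 3 it was 2 higher and 1 lower, SPINK4, and 5019 genes passed in place of 3724. Withdrawal against resistant LIM1215 gave 3 higher and 2 lower, where 27.9% passed (13.6% and 14.4%). In Caco2, 4 rose and 0 fell in resistant cells, where 27.4% of all genes passed, 12.9% higher and 14.5% lower. In withdrawal against parental Caco2, 0 were higher and 3 lower, where 5.28% passed (2.73% higher, 2.54% lower). In withdrawal against resistant Caco2, 1 was higher and 4 lower, where 24.7% passed (12.1% and 12.5%). In resistant SW48, 2 were higher and 0 lower, where 22.7% passed (10.9% higher, 11.8% lower). In withdrawal against resistant SW48, 0 were higher and 1 lower, where 22.2% passed (11.1% in either direction). All SW48 calls were of genes near background. Withdrawal against parental SW48 gave 0 calls with limma, where 4.08% of all genes passed (1.78% higher, 2.3% lower). There, 1 of the 10 genes had an unadjusted p under 0.05, as did 15.7% of all genes. That gene, MUC13, was called under quantile normalization, median centring, a filter on dim genes and a variance trend. The median change of the 10 genes in resistant cells was -0.325 in LIM1215 and 0.475 in Caco2, against -0.028 and -0.026 over all genes. These medians were set by TFF1 and SPDEF in LIM1215 and by FCGBP and PIGR in Caco2. None of these was called, and each was near background in both groups, so the medians do not describe the genes above background.

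**Figure D2:**
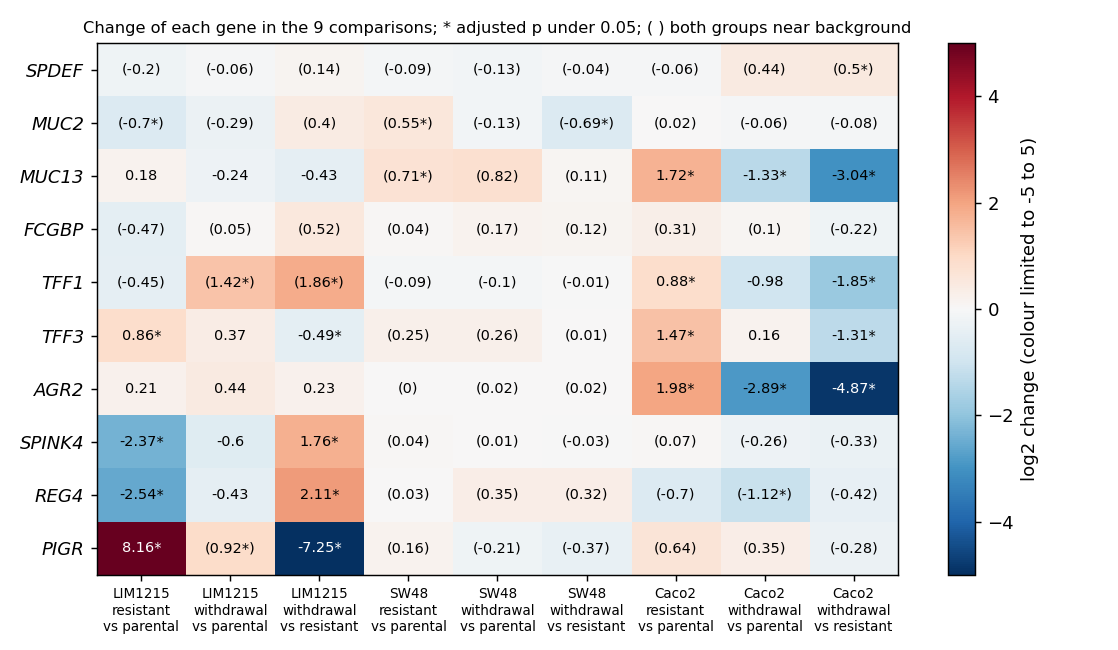
Log2 change of each gene (rows) in the 9 comparisons (columns), with the first-named state minus the second and colour limited to 5 either way. An asterisk marks an adjusted p under 0.05 and brackets mark genes near background in both groups; every SW48 value is in brackets, and the largest changes in LIM1215, 8.16 and -7.25, belong to PIGR.

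SPDEF, the goblet cell maturation factor, was measured at 3.9 to 4.33 in LIM1215, 2.38 to 2.85 in SW48 and 2.7 to 3.72 in Caco2, all under background. Its sole call was a difference of 0.50 (SE 0.185, adjusted p = 0.0497) between withdrawal and resistant Caco2, where the arrays overlapped. That call was lost under 7 of the 8 alternatives that keep all arrays, with an adjusted p of 0.1718 when the line was fitted alone. The remaining alternative, a filter on dim genes, left SPDEF out and so did not test it. It was also lost without parental replicate 1, resistant replicate 2 or 3 or withdrawal replicate 1 or 3 (adjusted p = 0.05481, 0.1559, 0.137, 0.1886 and 0.2437). Withdrawal minus parental Caco2 was 0.44 (adjusted p = 0.23) and passed without withdrawal replicate 2 (adjusted p = 0.03065).

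Of 18 measured factors of the secretory lineage, 3 were higher and 1 lower in resistant LIM1215 (2 and 1 without parental replicate 3), where 10.8% of all genes passed. In resistant SW48, 1 rose and 2 fell, and in resistant Caco2, 3 rose and 1 fell, where 22.7% and 27.4% of all genes passed. With all arrays, a group was above background for 4, 3 and 1 of these calls in LIM1215, SW48 and Caco2. The median changes of the 18 factors were 0.148, -0.193 and 0.185, against -0.028, -0.002 and -0.026 over all genes. In LIM1215 ATOH1, the master factor of secretory cells, stood at 7.99, 8.11 and 5.67 on the parental arrays, 8.98, 8.89 and 9.4 on the resistant and 5.36, 3.09 and 4.02 on the withdrawal arrays. The withdrawal arrays were the lowest, and all 3 were under background. ATOH1 was lower in withdrawal than in resistant cells by 4.93 on the log2 scale (SE 0.459, adjusted p = 2.42e-08, at least 3.08-fold). Its rise in resistant over parental cells, 1.83 (adjusted p = 0.00908), was not called without parental replicate 3 (1.04, adjusted p = 0.0545). The Notch ligand DLL4 also lost its call of 1.24 (adjusted p = 0.0152) without that array (0.83, adjusted p = 0.0961). In SW48, FOXA1, a pioneer factor of gut epithelium, fell from 9.72 ± 0.22 to 7.62 ± 0.59 (SD, n = 3; at least 4.11-fold). In Caco2, SOX9, a crypt factor, rose from 12.49 ± 0.10 to 13.68 ± 0.06 (2.28-fold). ATOH1 was near background in every SW48 and Caco2 group.

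MUC2, the gel-forming mucin of the colon, stayed below background throughout. In LIM1215 its means were 4.91 (parental), 4.22 (resistant) and 4.62 (withdrawal), and the resistant value was lower by 0.70 on the log2 scale (SE 0.183, adjusted p = 0.0129). In SW48 it was higher in resistant than in parental cells by 0.55 (adjusted p = 0.0304). It was then lower in withdrawal than in resistant SW48 (-0.69, adjusted p = 0.00744). With values floored at background the LIM1215 difference turned to 0.39, and all 3 calls were lost. The LIM1215 call was also lost under quantile normalization (adjusted p = 0.05039), with the line fitted alone (0.0839) and without parental replicate 1 or 2 or resistant replicate 2 (0.07069, 0.06286 and 0.1155). The SW48 rise was lost with the line fitted alone (adjusted p = 0.06743) and without any 1 of the 3 parental arrays or of resistant replicates 1 and 2 (adjusted p between 0.05678 and 0.1843), and the SW48 fall without resistant replicate 1 (adjusted p = 0.06177). In Caco2 the resistant minus parental difference was 0.02 (95% interval -0.36 to 0.40).

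MUC2 stands on chromosome 11 among the gel-forming mucin genes MUC6, MUC5AC and MUC5B. Of these, MUC6, a mucin of gastric glands, changed most in LIM1215. It read 10.4, 10.56 and 8.92 in parental cells, 7.26, 7.52 and 6.05 in resistant cells and 9.18, 9.11 and 9.23 after withdrawal. Every resistant array was below every array of the other states. The fall was 3.02 on the log2 scale (SE 0.337, adjusted p = 6.5e-07, at least 4.64-fold), and MUC6 was higher again by 2.23 in withdrawal than in resistant cells (adjusted p = 2.27e-05). Withdrawal minus parental was -0.78, and without parental replicate 3 it was -1.3 and passed (adjusted p = 0.00141). MUC5AC, the surface mucin of stomach and airways, fell by 1.17 (adjusted p = 0.0171) to below background in resistant cells. MUC5B was near background in all 9 groups. MUC1, a transmembrane mucin, rose by 2.42 in resistant LIM1215 (adjusted p = 8.38e-05, at least 3.23-fold), and by 3.13 without parental replicate 3. Of 10 other mucins measured, 1 rose and 2 fell in resistant LIM1215, where 10.8% of all genes passed. In withdrawal against parental LIM1215, 1 was higher and 1 lower (1 and 2 without parental replicate 3), where 21.1% of all genes passed. In resistant Caco2, 0 of them were called, where 27.4% of all genes passed.

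**Figure D3:**
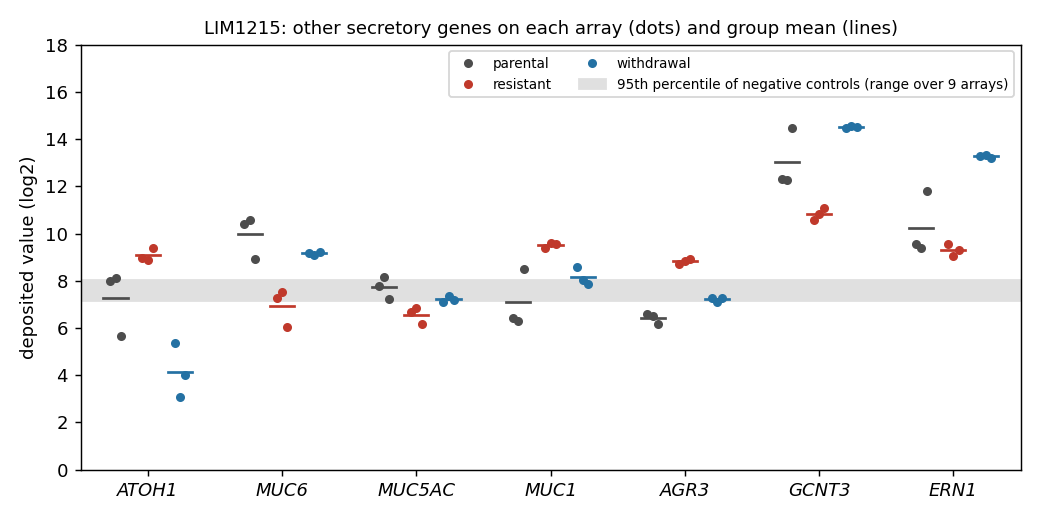
Deposited log2 value of 7 other secretory genes (x axis) on each LIM1215 array, coloured by state, with group means as short lines and the background range as a grey band. MUC6 is lowest in resistant cells, AGR3 is highest there, ATOH1 is lowest after withdrawal, and 1 parental array differs from the other 2 in most of these genes.

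MUC13, the membrane mucin, was far above background in LIM1215 at 15.65 to 16.19, and no comparison there passed the test. Withdrawal minus resistant was -0.43 (adjusted p = 0.202), and it passed with LIM1215 fitted alone (adjusted p = 0.03242) or values floored (adjusted p = 0.04091). Its other changes were 0.18 (95% interval -0.31 to 0.68) in resistant and -0.24 (-0.73 to 0.25) in withdrawal against parental cells. In Caco2 it stood at 7.91, 7.95 and 7.96 on the parental arrays, 9.63, 9.88 and 9.47 on the resistant and 6.37, 6.76 and 6.72 on the withdrawal arrays. The 3 states did not overlap, and of the parental arrays 2 were just above background. MUC13 rose 3.28-fold in resistant Caco2 (1.72 on the log2 scale, SE 0.237, adjusted p = 5.12e-06). It was at least 3.18-fold lower in withdrawal than in resistant cells (-3.04, adjusted p = 8.03e-10). It was also lower in withdrawal than in parental cells (-1.33, adjusted p = 0.00102), where the bound gives no fold and the difference was 0.01 with values floored at background. In SW48 it was near background, at 2.14 to 4.1, and 0.71 higher in resistant than in parental cells (adjusted p = 0.0336). That call was lost with the line fitted alone (adjusted p = 0.1783), with values floored (0.09182) and without parental replicate 2 or 3 or resistant replicate 2 or 3 (0.1856, 0.1137, 0.05155 and 0.1493). Withdrawal minus parental SW48 was 0.82 (adjusted p = 0.0547), and it passed without parental replicate 1 (adjusted p = 0.01718) or withdrawal replicate 1 (adjusted p = 0.02082).

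FCGBP, the mucus-bound protein, was the single gene of the 10 with no call in any of the 9 comparisons. Its values ran from 2.29 to 4.3 over the 27 arrays, all under background. Withdrawal minus resistant LIM1215, 0.52 (adjusted p = 0.114), passed without withdrawal replicate 2 (0.73, adjusted p = 0.04431).

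TFF3, the trefoil peptide of intestinal goblet cells, rose in resistant cells of both lines that expressed it. In LIM1215 it read 12.3, 12.22 and 11.9 in parental cells, 12.94, 13.13 and 12.92 in resistant cells and 12.47, 12.47 and 12.6 after withdrawal. The resistant arrays were the highest, and the rise was 1.81-fold (0.86, SE 0.146, adjusted p = 0.000196). Withdrawal was lower than resistant by 0.49 (adjusted p = 0.0147), a call lost when arrays were centred on their median (adjusted p = 0.0633) and without resistant replicate 2 (adjusted p = 0.071). In Caco2 it stood at 10.15, 9.99 and 9.69 on the parental arrays, 11.46, 11.25 and 11.54 on the resistant and 10.16, 10.11 and 10.06 on the withdrawal arrays. Resistant arrays lay apart from the other 6, which overlapped. TFF3 rose 2.77-fold in resistant Caco2 (1.47, SE 0.146, adjusted p = 3.69e-08) and was 2.47-fold lower in withdrawal than in resistant cells (adjusted p = 2.74e-07). Withdrawal minus parental was 0.16 (95% interval -0.14 to 0.47). The rise in LIM1215 minus that in Caco2 was -0.61 on the log2 scale (adjusted p of the difference 0.0372), a call lost under quantile normalization (-0.45, adjusted p = 0.2076), with values floored (0.05416), with a variance trend (0.07078) and when any 1 of 8 arrays was left out (adjusted p between 0.05064 and 0.1158).

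TFF1, best known as the trefoil peptide of gastric surface cells, lies beside TFF2 and TFF3 on chromosome 21. In Caco2 it read 7.81, 8.44 and 7.59 in parental cells, 8.18, 8.86 and 9.44 in resistant cells and 7.21, 6.89 and 6.81 after withdrawal. Parental and resistant arrays overlapped, and the withdrawal arrays were the lowest. The resistant rise was 0.88 (SE 0.318, adjusted p = 0.0421, 1.84-fold), and it was lost with Caco2 fitted alone (adjusted p = 0.06813). It was also lost without parental replicate 1 or 3 or resistant replicate 2 or 3 (adjusted p = 0.1174, 0.1763, 0.09425 and 0.2447). Withdrawal was at least 1.79-fold lower than resistant (-1.85, adjusted p = 9.04e-05). In LIM1215 TFF1 was near background, and it was higher in withdrawal than in parental (1.42, adjusted p = 0.00254) and resistant cells (1.86, adjusted p = 9.35e-05). With values floored the first fell short of the test (0.11, adjusted p = 0.7042) and the second was -0.28. Without parental replicate 3 the first was 1.86. TFF2 was near background in all 9 groups.

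AGR2, the isomerase needed for mucin folding, was high in LIM1215 at 14.6 to 15.21, and no comparison there passed the test (0.44 in withdrawal against parental, 95% interval 0.09 to 0.80, adjusted p = 0.0726). That value passed with LIM1215 fitted alone (adjusted p = 0.03135), a filter on dim genes (0.04328) or values floored (0.01979). In Caco2 it stood at 10.53, 10.33 and 10.46 on the parental arrays, 12.49, 12.31 and 12.47 on the resistant and 7.31, 8.1 and 7.24 on the withdrawal arrays. The 3 states did not overlap. AGR2 rose 3.95-fold in resistant Caco2 (1.98, SE 0.171, adjusted p = 3.95e-09). It was then at least 19.9-fold lower in withdrawal than in resistant cells (-4.87, adjusted p = 1.18e-15). It was at least 5.03-fold lower in withdrawal than in parental cells (-2.89, adjusted p = 1.05e-10), which ranked 14 by size among 17687 genes in that comparison. There, 0 of 32 NK and leukocyte markers were called, where 5.28% of all genes passed. The summed intensity (log2) of these markers was 10.5 to 10.74 in parental and 11.17 to 11.21 in withdrawal Caco2. The part of NK transcripts in the AGR2 change was not tested. AGR2 lies beside its paralog AGR3 on chromosome 7, and the changes of the 2 genes were not tested against each other. AGR3 rose in resistant LIM1215 from 6.43 ± 0.23 to 8.82 ± 0.11 (at least 2.76-fold, adjusted p = 5.15e-09) and was near background in Caco2.

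**Figure D4:**
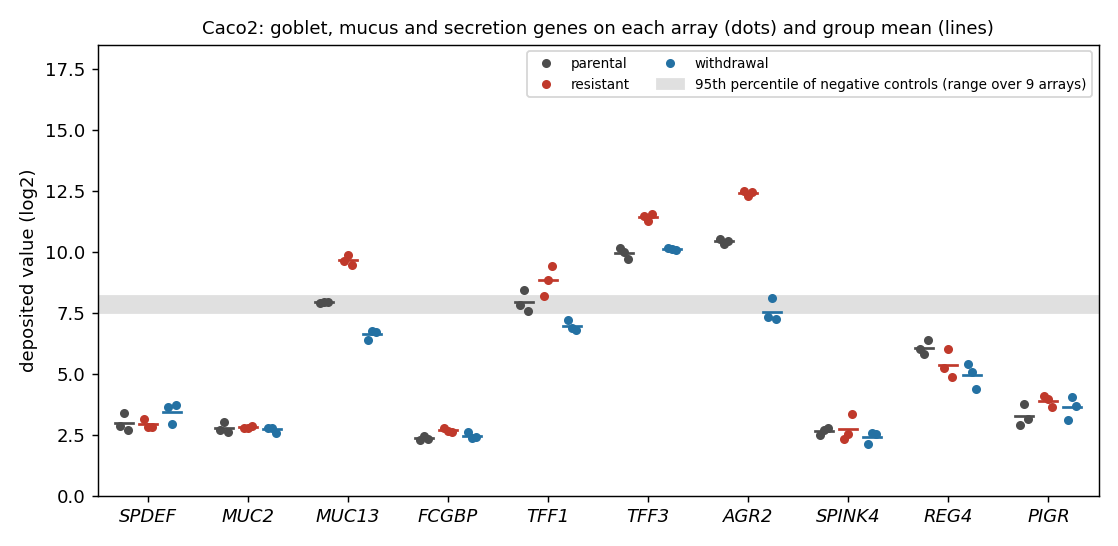
Deposited log2 value of the 10 genes (x axis) on each Caco2 array, coloured by state, with group means as short lines and the range of the background level over 9 arrays as a grey band. AGR2 and MUC13 are highest in resistant and lowest in withdrawal cells, TFF3 is highest in resistant cells, and heights of different genes are not comparable.

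SPINK4, a small secreted peptide of goblet cells, fell in resistant LIM1215. It read 9.07, 8.88 and 8.14 in parental cells, 6.38, 6.16 and 6.45 in resistant cells and 8.09, 8.26 and 7.93 after withdrawal. All resistant arrays were below background and below the other 6. The fall was 2.37 on the log2 scale (SE 0.233, adjusted p = 8.82e-08, at least 1.93-fold), and 2.65 without parental replicate 3. Withdrawal was higher than resistant by 1.76 (adjusted p = 3.9e-06, at least 1.27-fold), a call lost with values floored at background (0.35, adjusted p = 0.1934). Withdrawal minus parental was -0.60 (adjusted p = 0.071), and without parental replicate 3 it was -0.88 and passed (adjusted p = 0.005), as it did with a filter on dim genes (adjusted p = 0.04553). SPINK4 was near background in SW48 and Caco2, where no comparison passed.

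REG4, a secreted lectin, followed a like course in LIM1215. It stood at 7.49, 8 and 8.81 on the parental arrays, 5.59, 5.87 and 5.23 on the resistant and 7.63, 7.46 and 7.93 on the withdrawal arrays. Resistant arrays were again the lowest, while the other states overlapped. The fall was 2.54 (SE 0.304, adjusted p = 1.9e-06, at least 1.28-fold), or 2.18 without parental replicate 3. With values floored at background that call was lost (-0.35, adjusted p = 0.2259). Withdrawal was higher than resistant by 2.11 (adjusted p = 1.27e-05), but its mean was only 0.20 above background, and the difference was -0.07 with values floored at background. In Caco2 REG4 was near background at 6.07, 5.37 and 4.95 in parental, resistant and withdrawal cells, and the withdrawal minus parental difference was -1.12 (adjusted p = 0.0312). That call was lost with Caco2 fitted alone (adjusted p = 0.1117) and without parental replicate 1 or 3 or withdrawal replicate 2 or 3 (0.06985, 0.1565, 0.06691 and 0.2003), and the difference was 0.23 with values floored. Resistant minus parental Caco2 was -0.70 (adjusted p = 0.0987), and without resistant replicate 2 it was -1.02 and passed (adjusted p = 0.0181). The other measured REG genes were near background in all groups; REG1A and REG1B exceeded their parental values by 1.57 and 1.17 in resistant LIM1215 (adjusted p = 0.000395 and 0.00019). Without parental replicate 3, REG3A was also called there, at -0.56 (adjusted p = 0.0277). In withdrawal against parental LIM1215, 0 of these 4 REG genes were called with all arrays. Without parental replicate 3, REG1A was called lower there (-0.85, adjusted p = 0.0181).

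PIGR, the IgA transporter, read 5.31, 4.51 and 4.84 in parental LIM1215, 12.98, 13.01 and 13.17 in resistant and 5.31, 5.98 and 6.11 in withdrawal cells. The 3 resistant arrays stood far above the other 6, which were all under background. The rise was at least 51.8-fold (8.16 on the log2 scale, SE 0.244, adjusted p = 5.55e-17), and in size it ranked 2 among 17687 genes. Parental replicate 3, the array with high IFIT1, read 4.84, between the other parental arrays, and without it the rise was 8.14. Withdrawal was at least 47.9-fold lower than resistant (-7.25, adjusted p = 4.87e-16). Withdrawal remained 0.92 above parental (adjusted p = 0.00898), with both near background. That call was lost with values floored (0.11, adjusted p = 0.6316) and without parental replicate 2 (adjusted p = 0.07435) or withdrawal replicate 3 (adjusted p = 0.0555).

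PIGR stayed near background in both other lines. It read 2.58 to 3.06 in parental and resistant SW48 (0.16, adjusted p = 0.761), and 2.9 to 3.75 in parental and 3.64 to 4.07 in resistant Caco2 (0.64, 95% interval 0.13 to 1.14, adjusted p = 0.0571). The Caco2 value passed with a filter on dim genes (adjusted p = 0.0386) and without parental replicate 2, resistant replicate 3, or withdrawal replicate 1 or 2 (adjusted p = 0.01318, 0.04308, 0.03737 and 0.04369). The LIM1215 rise exceeded that of SW48 by 8.01 (adjusted p = 7.31e-14) and that of Caco2 by 7.53 (adjusted p = 3.32e-13) on the log2 scale.

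Among known inducers and mediators of PIGR expression, IRF1 rose in resistant cells of all 3 lines. IRF1, an interferon-induced transcription factor, went in LIM1215 from 10.05 ± 0.78 to 13.17 ± 0.07 (adjusted p = 2.68e-09). It rose in resistant SW48 from 7.91 ± 0.09 to 9.64 ± 0.19 (adjusted p = 1.3e-05) and in resistant Caco2 from 7.36 ± 0.29 to 10.72 ± 0.08 (adjusted p = 2.87e-10). In LIM1215 it was lower by 2.38 in withdrawal than in resistant cells (adjusted p = 1.52e-07). The interferon gamma receptor chains IFNGR1 and IFNGR2 fell in resistant LIM1215, by 0.79 (adjusted p = 0.00949) and 0.46 (adjusted p = 0.00708), but without parental replicate 3 IFNGR1 fell short of the test (-0.53, adjusted p = 0.0614). Of 15 genes measured, 2 rose and 3 fell in resistant LIM1215 (2 and 2 without parental replicate 3), 6 rose and 3 fell in SW48, and 8 rose and 0 fell in Caco2, where 10.8%, 22.7% and 27.4% of all genes passed. Their median change was -0.026, 0.264 and 0.608, against -0.028, -0.002 and -0.026 over all genes.

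**Figure D5:**
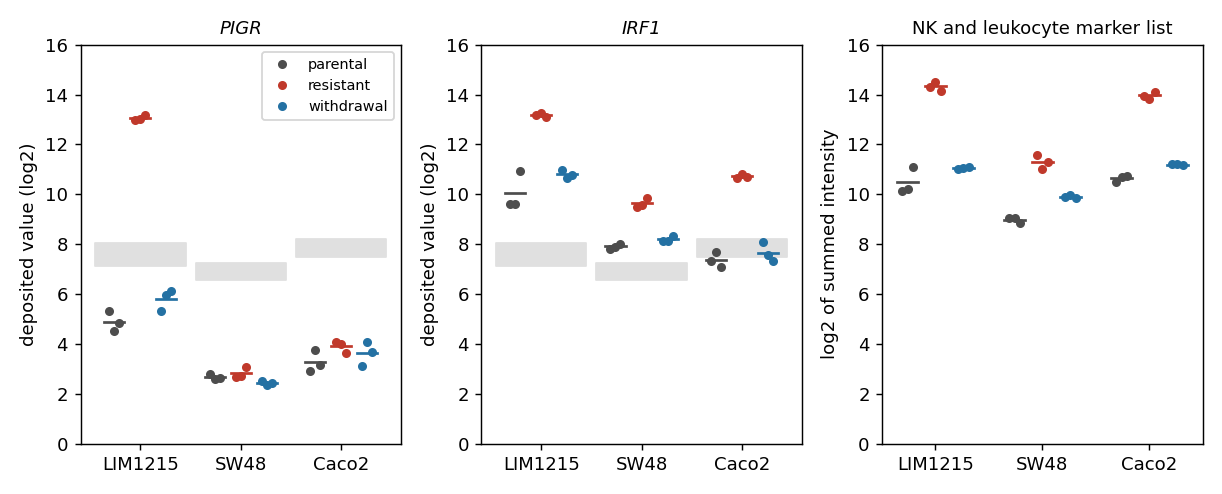
Log2 values on each array of PIGR and IRF1 and the log2 of the summed intensity of 32 NK and leukocyte markers, by line (x axis) and state (colour), with group means as short lines and background ranges as grey bands. IRF1 and the marker sum are highest in resistant cells of all 3 lines, whereas PIGR exceeds background only in resistant LIM1215.

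Of 17 measured enzymes that build mucin glycans, 9 rose and 2 fell in resistant Caco2, where 27.4% of all genes passed, with a median change of 0.679 against -0.026 over all genes. In withdrawal against resistant Caco2, 1 rose and 8 fell, where 24.7% of all genes passed, with a median of -0.611 against 0.012. A group was above background for 6 of the calls in resistant against parental Caco2 and 5 of those in withdrawal against resistant Caco2. FUT2, which makes the H antigen of secretions, rose from 7.52 ± 0.40 to 9.95 ± 0.29 (at least 4.59-fold, adjusted p = 4.71e-08). ST3GAL1, a sialyltransferase, fell from 8.86 ± 0.26 to 7.40 ± 0.12 (at least 1.97-fold, adjusted p = 0.000112). In resistant LIM1215, 0 rose and 4 fell, or 2 and 2 without parental replicate 3, where 10.8% of all genes passed. GCNT3, which makes branched mucin glycans, fell there from 13.03 ± 1.27 to 10.84 ± 0.26 (-2.19, adjusted p = 0.000137, or -1.46 without that array). It was 12.8-fold higher in withdrawal than in resistant LIM1215 (adjusted p = 5.51e-08). In resistant SW48, 2 rose and 2 fell, where 22.7% of all genes passed.

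Genes of protein folding and the secretory route were above background in nearly all groups, at 17 or 18 of 18. In resistant Caco2, 5 of the 18 rose and 0 fell, where 27.4% of all genes passed, 12.9% higher and 14.5% lower. Their median change was 0.123 against -0.026 over all genes. In withdrawal against resistant Caco2, 0 were higher and 7 lower, where 24.7% passed (12.1% higher, 12.5% lower), with a median of -0.225 against 0.012. In resistant against parental Caco2, 2 of the genes that rose were CALR and VAMP8. CALR, a chaperone of glycoproteins, rose by 0.65 (adjusted p = 1.37e-05), and VAMP8, which serves granule release, by 1.13 (adjusted p = 0.00265). In resistant SW48, 5 rose and 7 fell, where 22.7% of all genes passed. XBP1, a factor of the unfolded protein response, fell there by 1.15 (adjusted p = 3.91e-05). In LIM1215, 7 were higher and 0 lower in withdrawal than in parental cells (8 and 0 without parental replicate 3), where 21.1% of all genes passed. The stress sensor ERN1 was among them, at 13.27 ± 0.06 against 10.25 ± 1.36 (3.02, adjusted p = 5.6e-06, or 3.81 without parental replicate 3).

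Other secreted and granule genes of goblet cells showed no single direction. Of 21 measured, 5 rose and 2 fell in resistant LIM1215 (5 and 1 without parental replicate 3), 2 rose and 3 fell in SW48, and 5 rose and 4 fell in Caco2. With all arrays, a group was above background for 5, 3 and 2 of these calls in LIM1215, SW48 and Caco2. The share of all genes that passed was 10.8%, 22.7% and 27.4%, and the list's median changes were 0.068, -0.018 and -0.013. The goblet cell markers CLCA1, ZG16 and ITLN1 were near background in all 9 groups. SERPINA1, a protease inhibitor, rose in resistant SW48 from 2.07 ± 0.13 to 9.15 ± 0.20 (at least 5.38-fold, adjusted p = 2.4e-20). It rose in resistant Caco2 from 11.52 ± 0.08 to 15.75 ± 0.08 (18.7-fold, adjusted p = 2.11e-16). LCN2, an iron-withholding protein, rose 20.5-fold in resistant SW48 (adjusted p = 4.71e-13) and fell by 1.05 in resistant LIM1215 (adjusted p = 0.00164, or by 0.69 without parental replicate 3). SPINK1, a trypsin inhibitor related to SPINK4, rose in resistant LIM1215 by 2.19 (adjusted p = 5.02e-05, at least 1.72-fold), or by 1.57 without parental replicate 3.

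Markers of other intestinal cell types moved beside these genes. Of 18 enterocyte markers, 6 rose and 2 fell in resistant LIM1215 (8 and 0 without parental replicate 3) and 7 rose and 1 fell in resistant Caco2, where the brush border protein CDHR5 rose by 3.42 (adjusted p = 6.98e-09). With all arrays, a group was above background for 3 of these calls in LIM1215 and 6 in Caco2. Of 9 Paneth cell markers, a list that includes SPINK4, 1 rose and 4 fell in resistant LIM1215 (1 and 5 without parental replicate 3). The antimicrobial phospholipase PLA2G2A was the one that rose, by 3.74 (adjusted p = 9.08e-08), or by 3.01 without parental replicate 3. In resistant Caco2, 4 Paneth markers rose, with LYZ, which myeloid cells also express, up by 4.53 (adjusted p = 6.72e-13). Only 1 of these 4 had a group above background. Of 8 enteroendocrine markers, 0 were called in resistant LIM1215 and 1 fell in resistant Caco2, near background in both groups. Of 7 stem cell markers, 2 rose and 2 fell in resistant LIM1215 (2 and 3 without parental replicate 3). With all arrays, a group was above background for 2 of these calls. Of 9 B cell and myeloid markers, 1 rose in resistant LIM1215 (1 rose and 1 fell without parental replicate 3), 2 rose in SW48 and 4 in Caco2. With all arrays, a group was above background for 0, 1 and 4 of these calls in LIM1215, SW48 and Caco2. All these counts stand beside 10.8% of all genes called in resistant LIM1215, 22.7% in SW48 and 27.4% in Caco2. Their part in the changes above was not tested.

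For the genes called in at least 2 comparisons, the most similar profiles were sought among 10498 genes (10499 for MUC2), by the root mean square difference over the 6 changes of resistant and withdrawal against parental cells. This is a description over 6 changes that share parental arrays. Nearest to PIGR were CASP1 (0.714), HLA-DRB5 (0.809) and CARD16 (0.86), and CASP1 changed by 7.15 in resistant LIM1215. Nearest to SPINK4 were AOC1 (0.226), MUC6 (0.303) and PRXL2A (0.322). Nearest to REG4 were PTPRR (0.173), FER1L6 (0.236) and TNFSF15 (0.308). AGR2 had PLAC8 (0.502), MT2A (0.553) and TFEC (0.706), and MUC13 had GPR176 (0.357), STOM (0.391) and TUBA4A (0.449). TFF3 had ANO9 (0.203), LDHD (0.225) and PTK2B (0.228). TFF1 had BCL2L14 (0.372), KRTAP5-2 (0.38) and EEIG1 (0.387), and MUC2 had TM9SF2 (0.113), PIAS4 (0.144) and QPCTL (0.15).

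The difference between lines in the change of each gene was tested in the same fit. The resistant change differed between LIM1215 and Caco2 for 7 of 10 genes, where 21.3% of all genes differed, and between LIM1215 and SW48 for 5 (18.3%). It differed between SW48 and Caco2 for 3 (25.9%). The withdrawal change differed for 3 genes in each pair, where 13.3% (LIM1215 and SW48), 13.4% (LIM1215 and Caco2) and 5.31% (SW48 and Caco2) of all genes differed. AGR2 had a withdrawal change of -2.89 in Caco2 and 0.44 in LIM1215, a difference of 3.33 (adjusted p = 5.77e-09).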

How the data were processed

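The deposited table of the whole series gives log2 values per probe set and array; the log2 scale was inferred from their range, and the authors' software, background correction and normalization are not given in any source used here. Of 24351 probe sets, 2903 are controls and 21448 are transcripts, of which 17709 had 1 gene symbol. Where a gene had more than 1 probe set (20 genes), only the brightest was kept, leaving 17687 genes with no filter on dim ones. A limma 3.58.1 fit in R 4.3.3 (lmFit, eBayes, 18 residual degrees of freedom) with a mean for each of 9 groups tested 9 changes within lines and 6 differences between lines, with two-sided p-values adjusted by Benjamini-Hochberg across the genes of a contrast and a threshold of 0.05. It was tested on simulated data. Figures were drawn with matplotlib 3.10.9.

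The 10 genes and the gene lists were chosen with earlier results of these data known. Named genes are the 10, up to 3 called genes per list, comparison and direction, taken by size of change, the 3 genes of most similar profile, and family members that neighbour the 10 on a chromosome. IFIT1 falls outside this rule and was named after its values were seen, as were the goblet cell markers CLCA1, ZG16 and ITLN1. Some genes on the lists were not analysed here. Same-numbered replicates were checked for pairing: 0 of 27 pairs had a correlation of deviations over 0.1 (-0.041 to 0.075). The alternatives tried were quantile normalization, median centring, a fit on each line alone, a filter on dim genes, a floor at background, a replicate block, a variance trend, all transcript probe sets, and leaving out each of the 27 arrays. Arrays give no count of molecules, so their number limits the precision.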

Additional observations from a re-analysis of the deposited data

Results flagged for a closer look

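The resistant against parental change differed between lines by the test of the difference itself (limma, adjusted p under 0.05) for the following genes, as log2 differences. LIM1215 minus SW48 was 8.01 for PIGR, -2.57 for REG4, -2.41 for SPINK4, -1.25 for MUC2 and 0.61 for TFF3. LIM1215 minus Caco2 was 7.53 for PIGR, -2.44 for SPINK4, -1.84 for REG4, -1.77 for AGR2, -1.53 for MUC13, -1.33 for TFF1 and -0.61 for TFF3. SW48 minus Caco2 was -1.98 for AGR2, -1.22 for TFF3 and -1.01 for MUC13.

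For the withdrawal against parental change, LIM1215 minus SW48 was 1.52 for TFF1, 1.13 for PIGR and -1.06 for MUC13. LIM1215 minus Caco2 was 3.33 for AGR2, 2.39 for TFF1 and 1.08 for MUC13. SW48 minus Caco2 was 2.91 for AGR2, 2.14 for MUC13 and 1.47 for REG4. Every SW48 change was measured near background in both states, so differences that involve SW48 set the change in another line against values of genes under background. In some of them the other line was near background in both states too. These were MUC2 in the resistant change and TFF1 and PIGR in the withdrawal change of LIM1215, and REG4 in the withdrawal change of Caco2. With 3 arrays a group, no formal test for a single outlying array was made.

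Some of these differences lost the test or turned sign in many of the alternatives (24 or 25 each, mostly with 1 array left out). In the resistant change, TFF3 did so in 17 of 25 for LIM1215 minus SW48, with adjusted p-values from 0.02338 to 0.1346, and in 12 for LIM1215 minus Caco2. TFF1 did so in 9 for LIM1215 minus Caco2, among them without parental LIM1215 replicate 3 (-0.88, adjusted p = 0.1126), and MUC13 in 6 for SW48 minus Caco2. In the withdrawal change, LIM1215 minus SW48 lost the test in 10 for MUC13, and lost it in 6 and turned sign in 1 for TFF1 and for PIGR. MUC13 for LIM1215 minus Caco2 lost it in 9 and turned sign in 1. REG4 for SW48 minus Caco2 lost it in 16 and turned sign in 1. With values floored, the differences of REG4 in the resistant change and those of TFF1 (LIM1215 minus Caco2) and MUC13 (SW48 minus Caco2) in the withdrawal change also lost the test, and that of MUC2 turned to 0.03. Without parental LIM1215 replicate 3, the LIM1215 minus SW48 difference of MUC13 in the withdrawal change fell short (-0.96, adjusted p = 0.05949). Without it, differences of SPINK4 in the withdrawal change (LIM1215 minus SW48, -0.89, adjusted p = 0.04113) and of MUC2 in the resistant change (LIM1215 minus Caco2, -0.89, adjusted p = 0.0123) passed.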

How the results depend on the processing

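Of 1503 values of within-line changes under the alternatives, 1423 kept direction and side of the threshold, 52 lost the call, 23 gained it and 5 reversed; of 1482 line differences these were 1374, 95, 8 and 5. All reversals came with values floored at background: MUC2 in resistant LIM1215 0.39, TFF1 and REG4 in withdrawal against resistant LIM1215 -0.28 and -0.07, and MUC13 and REG4 in withdrawal against parental Caco2 0.01 and 0.23. The reversed differences were 0.03 for MUC2 (LIM1215 minus SW48, resistant), and for the withdrawal change -0.05 for TFF1 and -0.05 for PIGR (LIM1215 minus SW48), -0.25 for MUC13 (LIM1215 minus Caco2) and -0.07 for REG4 (SW48 minus Caco2). A floor replaces low values, so genes near background carry the floor's own differences between arrays.

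Of the 10 genes, the floor left 3 called of 5 in resistant and 1 of 2 in withdrawal against parental LIM1215, 3 of 5 in withdrawal against resistant LIM1215, 0 of 2 and 0 of 1 in SW48 (resistant against parental, withdrawal against resistant) and 1 of 3 in withdrawal against parental Caco2. A filter on dim genes, which left out SPDEF, MUC2 and FCGBP, gave 5 of the 10 in withdrawal against parental LIM1215, 1 in resistant SW48 and 0 in withdrawal against resistant SW48. MUC13 in withdrawal against parental SW48 made it 1 in place of 0 under quantile normalization, centring, that filter and the variance trend. Fitting each line alone gave 0 in resistant SW48. Over all genes, fitting the line alone called 1230 (1913 in the report's fit) in resistant and 2227 (3724) in withdrawal against parental LIM1215 and 380 (722) in withdrawal against parental SW48. The floor called 3147 (4842), 524 (933) and 2742 (4364) in the 3 Caco2 comparisons (resistant, withdrawal against parental, withdrawal against resistant). The cause was not tested. Centring moved the median of all genes in withdrawal against resistant LIM1215 from 0.031 to 0.124.

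Leaving out 1 array gave 1 to 3 of the 10 genes in withdrawal against parental LIM1215, 0 to 2 in resistant SW48, 0 to 1 in each other SW48 comparison, and over all genes 2260 to 5019 in withdrawal against parental LIM1215 and 448 to 736 in withdrawal against parental SW48. Same-numbered arrays share only a number. With the replicate block, 5 and 2 of the 10 genes were called in resistant and withdrawal against parental LIM1215 and 3 of 4 in resistant Caco2, where TFF1 lost its call (adjusted p = 0.05406). The block also ended the calls of REG4 in withdrawal against parental Caco2 (adjusted p = 0.06052) and SPDEF in withdrawal against resistant Caco2 (adjusted p = 0.09988), and FCGBP passed in withdrawal against resistant LIM1215 (adjusted p = 0.04729). Among line differences it ended those of TFF3 in the resistant change (LIM1215 with SW48 and with Caco2, adjusted p = 0.05899 and 0.05014) and of REG4 in the withdrawal change (SW48 with Caco2, 0.08046), and FCGBP gained one (LIM1215 with Caco2, resistant, 0.04518). It changed no other call of the 10 genes.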
